A study of Mus musculus with 6 samples.

Results

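The adult hemoglobin genes and their companions in the red cell were followed in ischemic muscle as an index of the red cell RNA that the tissue held. The 6 genes were taken by name from the 18089 genes of the table: the alpha globins *Hba-a1* and *Hba-a2*, the beta globins *Hbb-bs* and *Hbb-bt*, *Alas2* and *Slc4a1*. RNA was sequenced from gastrocnemius muscle of WT and *Gpr174-/Y* mice (3 libraries in each group), all male C57BL/6 aged 8 to 10 weeks, 7 days after hindlimb ischemia (HLI). In HLI the femoral artery is tied and a segment removed, and both groups had this surgery, so no uninjured muscle was compared here. *Gpr174-/Y* mice lack the X-linked receptor gene *Gpr174* in every cell type, and the controls were littermates. The sources used here do not say whether blood was flushed from the muscles before freezing.

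Hemoglobin is built from alpha and beta globin chains, each holding a heme. *Alas2* encodes the erythroid form of the first and rate-limiting enzyme of heme synthesis, and *Slc4a1* encodes the anion exchanger that is the most abundant protein of the red cell membrane. In the red cell lineage, transcription of these genes takes place in the nucleated precursors of bone marrow and spleen. Circulating reticulocytes, the youngest red cells, have lost the nucleus but still carry globin mRNA, and the blood in an adult muscle is therefore a known source of globin reads in bulk tissue RNA. In bulk RNA, more cells of a type and more RNA per cell cannot be told apart.

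The upstream sequences of the members are shown first because the members are known for erythroid expression. Their part in the values given below was not tested. The RefSeq promoter table on GRCm38.p6 matched 5 of the 6 members, and *Slc4a1* had no entry. Each sequence covers the 250 bases before the annotated start, 5′ to 3′ on the gene's strand. Capitals mark 4 short motifs on either strand: GATAA, the core bound by GATA factors, with TTATC on the other strand; the motif of Kruppel-like factors, CACCC, which reads GGGTG; the NF-Y motif CCAAT, which reads ATTGG; and TATAA, found near many gene starts, which as a reverse complement reads TTATA. *Hba-a1* lies at chr11:32283422-32283671 on the plus strand, *Hbb-bs* at chr7:103827929-103828178 and *Hbb-bt* at chr7:103813924-103814173 on the minus strand, and *Alas2* at chrX:150547167-150547416 on the plus strand.
Hba-a1: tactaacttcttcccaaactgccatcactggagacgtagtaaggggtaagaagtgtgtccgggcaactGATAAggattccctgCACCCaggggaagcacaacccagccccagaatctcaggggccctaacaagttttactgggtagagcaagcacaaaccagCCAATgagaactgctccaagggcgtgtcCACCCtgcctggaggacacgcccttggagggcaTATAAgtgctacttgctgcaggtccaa
Hbb-bs: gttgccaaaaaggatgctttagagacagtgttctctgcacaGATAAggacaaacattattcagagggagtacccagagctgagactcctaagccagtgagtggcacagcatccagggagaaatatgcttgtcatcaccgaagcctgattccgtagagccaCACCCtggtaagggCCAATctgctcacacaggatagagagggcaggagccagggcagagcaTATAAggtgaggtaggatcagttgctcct
Hbb-bt: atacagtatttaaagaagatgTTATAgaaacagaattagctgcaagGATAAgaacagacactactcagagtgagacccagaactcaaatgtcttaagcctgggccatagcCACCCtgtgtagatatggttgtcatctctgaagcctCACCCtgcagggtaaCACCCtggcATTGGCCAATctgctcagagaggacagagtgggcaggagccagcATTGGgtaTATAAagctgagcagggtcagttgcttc
Alas2: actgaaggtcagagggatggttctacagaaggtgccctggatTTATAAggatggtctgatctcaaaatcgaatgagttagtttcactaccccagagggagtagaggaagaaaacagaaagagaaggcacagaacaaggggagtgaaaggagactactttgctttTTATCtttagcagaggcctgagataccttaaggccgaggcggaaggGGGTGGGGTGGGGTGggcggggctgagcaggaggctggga

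The *Hba-a2* window (chr11:32296242-32296491, plus strand) shared an unbroken run of 247 of the 250 bases with that of *Hba-a1*, so it is not printed. Each of the 5 windows held 1 match to GATAA, against 22.6% of all 32851 promoter windows of this length with at least 1. CACCC matched 2 times in each alpha globin window, 1 time in *Hbb-bs* and 3 times in *Hbb-bt* and *Alas2*, and was present in 52.0% of all windows. CCAAT was found in the 4 globin windows (33.8% of all windows) and these letters were not in the *Alas2* window. TATAA was found in all 5 (22.8% of all windows). In the *Alas2* window the TATAA match at bases -207 to -203 overlaps its reverse complement at -208 to -204. A match of these letters is a description and not a measured binding site.

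Within each pair the copies are nearly identical in the coding sequence, which matters for how reads are divided between them. By the longest open reading frames of the GENCODE M21 transcripts, the alpha globins differed at 1 of 429 coding bases (C381T, the *Hba-a1* base first) and the beta globins at 1 of 444 (C417T, the *Hbb-bs* base first), counted from the A of the start codon. Neither change altered the protein of 142 or 147 residues. The windows below hold the differing base in capitals and lie in exon 3 on GRCm38, at chr11:32284313-32284372 for *Hba-a1*, chr11:32297130-32297189 for *Hba-a2*, chr7:103826665-103826724 for *Hbb-bs* and chr7:103812656-103812715 for *Hbb-bt*.
Hba-a1: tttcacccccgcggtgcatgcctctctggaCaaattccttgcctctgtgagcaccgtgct
Hba-a2: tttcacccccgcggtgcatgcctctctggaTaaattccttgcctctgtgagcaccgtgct
Hbb-bs: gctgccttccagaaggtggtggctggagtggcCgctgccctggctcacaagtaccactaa
Hbb-bt: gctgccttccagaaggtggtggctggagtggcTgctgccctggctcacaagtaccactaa

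Of the 50-base words of the *Hba-a2* transcript, 86.9% also occurred in *Hba-a1*, and of those of the *Hbb-bt* transcript 58.3% also occurred in *Hbb-bs*. Reads in those stretches are shared by estimate, so the split within each pair is uncertain, whereas the alpha sum and the beta sum do not depend on it. No 50-base word was shared between *Hba-a1* and *Hbb-bs*.

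The libraries held 18417077 to 18695013 expected counts in WT and 19173036 to 19394469 in *Gpr174-/Y* muscles, and 3 counts were taken as the smallest detectable number, for counting error only. Values of single libraries are given in the order of replicates 1, 2 and 3 of each group. *Gpr174* had 8, 2 and 5 counts in the WT libraries and 1, 0 and 0 in the *Gpr174-/Y* libraries. CPM values, counts relative to library size, were scaled with TMM, which aligns the bulk of the genes between libraries. Of 14395 genes tested with edgeR, 7863 (54.6%) had an adjusted p under 0.05, 3891 (27.0%) of them higher and 3972 (27.6%) lower in *Gpr174-/Y* than in WT muscles, while 1192 (8.28%) also had an absolute log2 fold change above 1. Scaling by total counts put the median log2 fold change of all genes at 0.28, against 0.00 with TMM, and the split at 7303 higher and 2010 lower. Replicate 2 lay between replicates 1 and 3 for 86.0% of 3859 genes of at least 50 CPM in the WT libraries and for 76.6% in the *Gpr174-/Y* libraries, and a fit without replicate 2 of either group called 0 genes with edgeR, although 5026 had an unadjusted p under 0.05. The labels do not say whether the replicates share material or are separate mice, and p-values measure only the spread between these libraries, which may be technical.

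The alpha globin genes were higher in 2 of the 3 *Gpr174-/Y* libraries than in any WT library, and the third *Gpr174-/Y* library had the lowest CPM of all 6. *Hba-a1* (Entrez gene 15122, chromosome 11) had 1188, 1077 and 927 counts in the WT libraries and 2225, 1804 and 988 in the *Gpr174-/Y* libraries. On the CPM scale these were 73.9, 64.1 and 52.1 in the WT libraries and 106, 85.0 and 46.0 in the *Gpr174-/Y* libraries. The groups therefore overlapped, with *Gpr174-/Y* replicates 1 and 2 above and replicate 3 below every WT library. The mean was 63.4 ± 10.9 CPM in the WT libraries and 79.1 ± 30.6 CPM in the *Gpr174-/Y* libraries (SD, n = 3 each), and edgeR gave a log2 fold change of 0.32 (standard error (SE) 0.29, adjusted p = 0.386).

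*Hba-a2* (Entrez gene 110257), the second alpha gene of the same cluster, had the same order of libraries with a wider range. Its counts were 1398, 1221 and 875 in the WT libraries and 2857, 2124 and 931 in the *Gpr174-/Y* libraries, which are 87.0, 72.7 and 49.2 CPM and 137, 100.03 and 43.3 CPM. *Gpr174-/Y* replicate 1 thus held 3.15 times the level of replicate 3 of the same genotype, whereas the WT libraries spanned 1.77-fold. The log2 fold change was 0.42 (SE 0.41, adjusted p = 0.407 with edgeR). For the alpha sum, which the split between copies does not touch, the log2 fold change was 0.37 (SE 0.35, adjusted p = 0.398 with edgeR). With total-count scaling it was 0.65, with *Hba-a1* at 0.59 and *Hba-a2* at 0.70, and none of these passed the threshold.

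Among the beta globins, *Hbb-bs* (Entrez gene 100503605, chromosome 7) was the more abundant. It had 1753, 1604 and 1295 counts in the WT libraries and 3554, 2625 and 1182 in the *Gpr174-/Y* libraries, or 109, 95.5 and 72.8 CPM against 170, 124 and 55.0 CPM. As with the alpha genes, *Gpr174-/Y* replicates 1 and 2 were the 2 highest libraries and replicate 3 the lowest. The log2 fold change was 0.33 (SE 0.38, adjusted p = 0.488 with edgeR), and without *Gpr174-/Y* replicate 1 it was -0.05.

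*Hbb-bt* (Entrez gene 101488143) varied little among the WT and widely among the *Gpr174-/Y* libraries. WT replicates 1, 2 and 3 had 134, 119 and 152 counts, or 8.34, 7.08 and 8.54 CPM, and the *Gpr174-/Y* replicates had 467, 376 and 122 counts, or 22.3, 17.7 and 5.67 CPM. The highest and lowest values differed by 1.21-fold among the WT libraries and by 3.93-fold among the *Gpr174-/Y* libraries. Its log2 fold change of 0.93 was the largest of the 5 tested members (SE 0.45, adjusted p = 0.124 with edgeR), and DESeq2's Wald test gave an adjusted p of 0.0471, within a range of 0.00611 to 0.455 over 17 alternatives. For the beta sum the log2 fold change was 0.39 (SE 0.38, adjusted p = 0.420 with edgeR). With total-count scaling it was 0.66, with *Hbb-bs* at 0.60 and *Hbb-bt* at 1.19, and none of these passed the threshold.

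*Alas2* (Entrez gene 11656, chromosome X) was measured at a far lower level than the globins. It had 46, 49 and 43 counts in the WT libraries and 97, 88 and 49 in the *Gpr174-/Y* libraries, or 2.86, 2.92 and 2.42 CPM and 4.64, 4.14 and 2.28 CPM. *Gpr174-/Y* replicates 1 and 2 were again above and replicate 3 below every WT library, and the log2 fold change was 0.43 (SE 0.27, adjusted p = 0.215 with edgeR). With total-count scaling it was 0.70 (adjusted p = 0.0466 with edgeR), within a range of adjusted p from 0.0146 to 0.525 over 17 alternatives. On the TPM scale, which is per length and per library, the values were 2.41, 2.56 and 2.25 in the WT libraries and 5.23, 4.79 and 2.74 in the *Gpr174-/Y* libraries. There the groups did not overlap, and the share of all genes without overlap on that scale is not given here. With CPM on total counts they did overlap, with *Gpr174-/Y* replicate 3 at 2.56 and WT replicate 2 at 2.64. The table lists 3 *Alas2* transcripts, and the estimate placed nearly all counts on a predicted model (XM) in WT replicates 1 and 2 and mainly on a curated one in the other libraries, so only the gene sum is used.

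*Slc4a1* (Entrez gene 20533, chromosome 11) was at the edge of detection. Its counts were 0, 5 and 5 in the WT libraries and 3, 3 and 1 in the *Gpr174-/Y* libraries, and the filter on low counts removed it. Without the filter the log2 fold change was -0.80 (SE 0.86, adjusted p = 0.480 with edgeR), and at this depth a difference was not detectable.

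**Figure D1:**
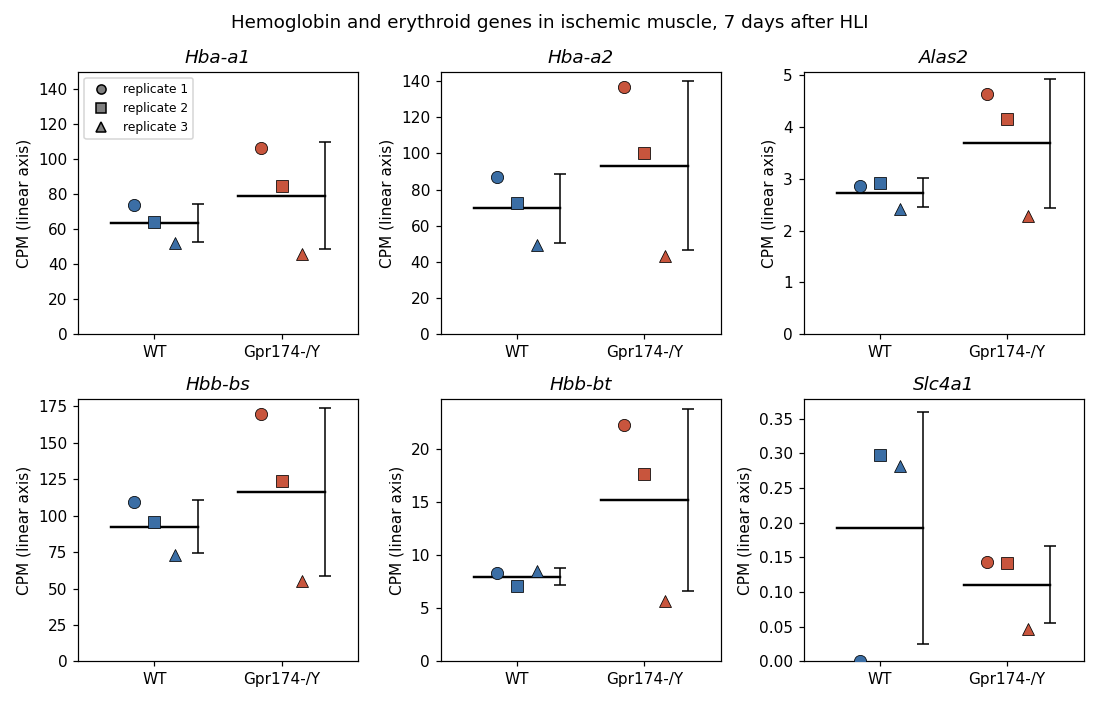
CPM (linear axis, TMM scaling) of the 6 members in each library, WT in blue and *Gpr174-/Y* in red, with the mean as a horizontal line, the SD (n = 3) as a bar and the replicate number as the marker shape. In the 4 globin genes and *Alas2*, *Gpr174-/Y* replicates 1 and 2 lie above all WT libraries and replicate 3 lies below them (with CPM on total counts only in *Hbb-bs* and *Hbb-bt*), while *Slc4a1* has at most 5 counts in any library.

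None of the members tested passed the threshold: 0 of 5 had an adjusted p under 0.05, against 54.6% of all tested genes, and 0 of 5 had an unadjusted p under 0.05 in edgeR's quasi-likelihood test. All 5 estimates were above 0, with a median log2 fold change of 0.42 against 0.00 over all tested genes. DESeq2's Wald test called 1 of the 5 (*Hbb-bt*) and 6815 of all 14395 tested genes. Total-count scaling called 1 member (*Alas2*) and 9313 of 14395 genes. With limma voom 0 members and 7881 of 14395 genes were called, and with limma on FPKM 0 members and 8640 of 12525 genes (pseudocount 1). The count rested on 1 library: without *Gpr174-/Y* replicate 3, 4 members had an adjusted p under 0.05 with edgeR. In that fit 6748 of all 14525 tested genes also passed. The 4 members were *Hba-a1* (log2 fold change 0.60), *Hbb-bs* (0.67), *Hbb-bt* (1.32) and *Alas2* (0.69). The beta sum had 0.73 there (adjusted p = 0.0317 with edgeR, within a range of 0.0317 to 0.985 over 15 alternatives).

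The spread within the *Gpr174-/Y* group was wide beside that of other genes. Its highest value over its lowest was 2.31 for *Hba-a1*, 3.15 for *Hba-a2*, 3.09 for *Hbb-bs*, 3.93 for *Hbb-bt* and 2.03 for *Alas2*. The median of 13636 genes of at least 1 CPM was 1.10, and between 99.2% and 99.9% of those genes had a smaller value than the member in question. Among the WT libraries the same measure was between 1.21 and 1.77, exceeded 56.1% to 92.3% of genes, and had a gene median of 1.18.

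The position of the *Gpr174-/Y* libraries against WT was shared by all tested members, while the order among the WT libraries was not. *Gpr174-/Y* replicates 1 and 2 above all WT libraries, wherever replicate 3 lay, was common (37.2% of the 14395 tested genes). The same with replicate 3 below them was seen in 5 of 5 tested members and in 123 of all tested genes (0.854%). With CPM on total counts, replicates 1 and 2 were above all WT libraries in 5 of 5 members and in 58.7% of tested genes, whereas replicate 3 was also below them in 2 members (*Hbb-bs* and *Hbb-bt*) and in 56 tested genes (0.389%). The position of replicate 3 relative to WT therefore depended on the scaling. This arrangement was described after the values were seen and has no test.

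As a share of all expected counts, the 4 adult globins made up 0.0243% (exact 95% interval 0.0236 to 0.0250), 0.0216% (0.0210 to 0.0223) and 0.0174% (0.0168 to 0.0180) in the WT libraries. In the *Gpr174-/Y* replicates they made up 0.0469% (0.0460 to 0.0479), 0.0358% (0.0350 to 0.0367) and 0.0168% (0.0162 to 0.0174). *Gpr174-/Y* replicate 3 and WT replicate 3 had overlapping counting intervals, and both other *Gpr174-/Y* libraries were above every WT interval. The mean share was 0.0211 ± 0.00349% in the WT libraries and 0.0332 ± 0.0152% in the *Gpr174-/Y* libraries (SD, n = 3 each). The difference of 0.0121 percentage points was larger than the WT SD and smaller than the *Gpr174-/Y* SD. A 2-sided exact permutation test gave p = 0.4, where 0.1 is the smallest p this design allows.

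Muscle fibre RNA took a smaller part of the *Gpr174-/Y* libraries, which bears on any share. The 13 mature fibre markers held 12.5% to 16.3% of all counts in WT and 6.82% to 7.22% in *Gpr174-/Y* muscles. Expressed as a percent of the counts outside these markers, the globin share was 0.0290%, 0.0254% and 0.0199% in the WT libraries and 0.0506%, 0.0385% and 0.0180% in the *Gpr174-/Y* libraries. The 2 high libraries stayed high and *Gpr174-/Y* replicate 3 stayed the lowest (2-sided exact permutation test, p = 0.4).

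**Figure D2:**
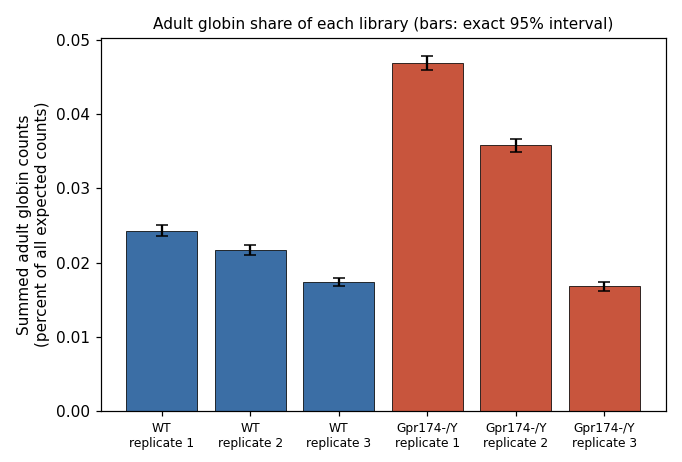
Summed counts of the 4 adult globin genes as a percent of all expected counts (linear axis from 0) in each library, with exact 95% intervals that cover counting error only. *Gpr174-/Y* replicates 1 and 2 reach 0.0469% and 0.0358%, and replicate 3, at 0.0168%, lies beside WT replicate 3 at 0.0174%.

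Ratios between members within a library do not depend on how libraries are scaled. Per length, on the TPM scale, alpha globin exceeded beta globin in each of the 6 libraries, with ratios of 1.58, 1.53 and 1.43 in the WT libraries and 1.45, 1.50 and 1.69 in the *Gpr174-/Y* libraries. This balance thus varied by only 1.18-fold while the summed globin TPM ranged from 604.7 to 1737. The difference in mean log2 ratio was 0.03 (2-sided exact permutation test, p = 0.8, adjusted p = 0.8 over the 4 ratios tested).

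The share of alpha globin counts placed on *Hba-a2* was 54.1%, 53.1% and 48.6% in the WT libraries and 56.2%, 54.1% and 48.5% in the *Gpr174-/Y* libraries. In both groups the library with least globin had the share nearest to equal, and the difference in the log2 ratio of *Hba-a1* to *Hba-a2* was -0.06 (2-sided exact permutation test, p = 0.7, adjusted p = 0.8). *Hbb-bt* counts per 100 *Hbb-bs* counts were 7.64, 7.42 and 11.7 in the WT libraries and 13.1, 14.3 and 10.3 in the *Gpr174-/Y* libraries. *Gpr174-/Y* replicates 1 and 2 were again the highest, and WT replicate 3 lay above *Gpr174-/Y* replicate 3, so the groups overlapped. The difference in mean log2 ratio was 0.52 (2-sided exact permutation test, p = 0.2, adjusted p = 0.8).

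*Alas2* varied 1.48-fold relative to the globins, with 1.03, 1.22 and 1.32 counts per 100 globin counts in WT and 1.07, 1.27 and 1.52 in the *Gpr174-/Y* libraries. Where globin was lowest in a group the ratio was highest, and the log2 difference between groups was 0.10 (2-sided exact permutation test, p = 0.6, adjusted p = 0.8). *Slc4a1* had 0 to 0.154 counts per 100 globin counts, and because of the 0 in WT replicate 1 its log2 ratio was not tested.

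**Figure D3:**
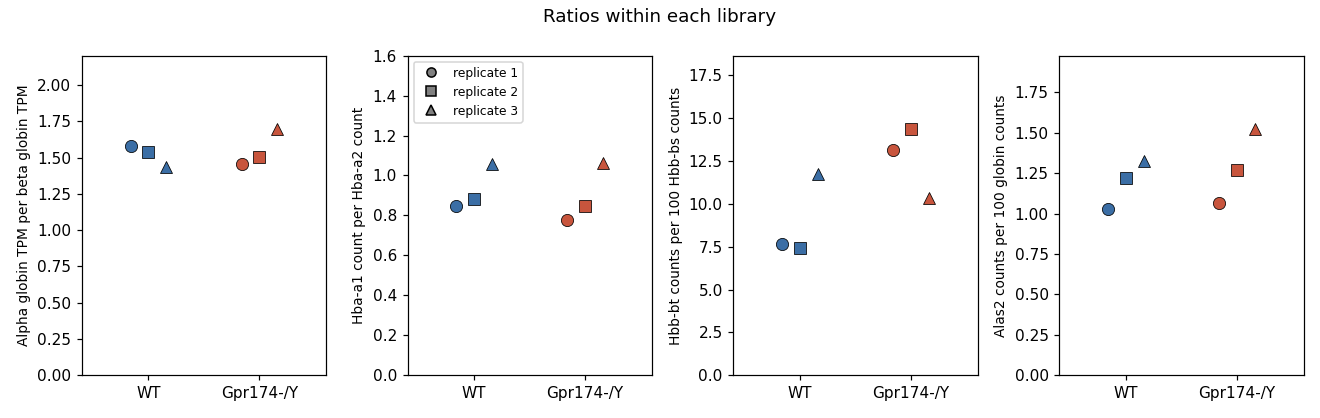
Ratios between members in each library (linear axes from 0): alpha to beta globin in TPM, *Hba-a1* to *Hba-a2*, *Hbb-bt* per 100 *Hbb-bs* and *Alas2* per 100 globin counts, with marker shapes for the replicate number. The groups overlap in all 4 panels, and alpha to beta stays between 1.43 and 1.69.

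Genes that mark nucleated red cell precursors were at or near 0. *Gata1*, the master transcription factor of the lineage, had 2, 1 and 0 counts in the WT libraries and 0 in each *Gpr174-/Y* library, and *Klf1*, which drives adult beta globin, had between 1 and 5 counts. *Hemgn*, *Tspo2*, *Kel* and *Car1* had at most 2 counts in any library. These genes were named after their values were seen. Of the 9 erythroid transcription factors listed, 5 could be tested, of which 0 rose and 2 fell, with a median log2 fold change of -0.33. *Tal1*, also active in endothelium, fell (log2 fold change -0.46, adjusted p = 0.0179) and so did *Zfpm1*, the partner of GATA factors (-0.33, adjusted p = 0.00651), both with edgeR. With total-count scaling 1 of the 5 rose and 0 fell, the calls of *Tal1* (-0.19) and *Zfpm1* (-0.06) being lost. The bridging proteins *Lmo2* and *Ldb1* had log2 fold changes of -0.03 and 0.06 and did not pass, and that of *Lmo2* was above 0 with total-count scaling and with limma on FPKM.

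Among the other globins, 7 of 11 listed genes had a row and 2 could be tested. *Mb*, the myoglobin of muscle fibres, fell from 1722, 1670 and 1570 CPM in WT to 419, 414 and 393 CPM in *Gpr174-/Y* muscles (log2 fold change -2.02, SE 0.08, adjusted p = 0.000237 with edgeR). *Cygb*, a globin of fibroblasts, was lower by 0.19 on the log2 scale (edgeR log2 fold change -0.19, adjusted p = 0.0175), a direction that turned with total-count scaling and with limma on FPKM. *Hbb-b1* and *Hbb-b2*, the adult beta genes of the other common mouse haplotype, had at most 4 and 0 counts, and the embryonic-type *Hbb-bh2* had 2 to 5. *Hba-x*, *Hbb-y*, *Hbb-bh1* and *Hbq1a* were not analysed here.

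In the heme synthesis pathway 0 of 8 enzymes rose and 5 fell, with a median log2 fold change of -0.36, in a direction opposite to the estimate for *Alas2*. *Alas1*, the housekeeping counterpart of *Alas2*, was at 183, 168 and 151 CPM in the WT libraries and 103, 101 and 103 CPM in the *Gpr174-/Y* libraries (log2 fold change -0.71, adjusted p = 0.00104 with edgeR). *Fech*, which inserts iron into heme, fell by 0.50 and *Urod* by 0.45 on the log2 scale (adjusted p = 0.00681 and 0.00184 with edgeR). *Cpox* had a log2 fold change of -0.05 and did not pass, and it was above 0 with total-count scaling, with limma on FPKM and without WT replicate 1 or *Gpr174-/Y* replicate 3. With total-count scaling 2 of the 8 rose and 4 fell.

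Of 11 genes of heme transport and iron supply, 1 rose and 7 fell, with a median of -0.22. *Iscu*, the scaffold of iron-sulfur clusters, fell (log2 fold change -0.67, adjusted p = 0.00163 with edgeR), as did *Glrx5* of the same pathway (-0.48) and *Steap3*, an iron reductase (-0.31). *Tfrc*, the transferrin receptor, was at 229, 196 and 151 CPM in the WT libraries and at 86.9, 110 and 150 CPM in the *Gpr174-/Y* libraries (log2 fold change -0.73, adjusted p = 0.0291 with edgeR), so *Gpr174-/Y* replicate 3 lay beside the lowest WT library. The calls of *Steap3* and *Tfrc* were lost in 10 and 9 of 17 alternatives, and with total-count scaling their log2 fold changes were -0.03 and -0.45. With that scaling 3 of the 11 rose and 3 fell.

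Genes of the red cell membrane and skeleton moved in both directions, with 5 higher and 6 lower among 14 tested and a median of -0.27. *Sptb*, a spectrin also found in muscle fibres, fell by 1.10 on the log2 scale, and *Aqp1*, a water channel of red cells and capillary endothelium, fell by 1.34 (adjusted p = 0.00127 and 0.00197 with edgeR). *Ermap* rose by 1.21 and *Slc14a1*, a urea transporter, by 1.15, at levels of at most 4.14 and 1.67 CPM. *Slc4a2*, a widely expressed relative of *Slc4a1*, was higher by 0.25 (adjusted p = 0.00830 with edgeR), and of the 4 anion exchanger relatives tested 1 rose and 1 fell. *Slc4a4* fell by 0.47 on the log2 scale, and *Slc4a3* and *Slc4a7* did not pass (log2 fold changes 0.35 and 0.16). With total-count scaling 3 of these 4 rose and 0 fell, *Slc4a4* at -0.19, while the membrane list again had 5 higher and 6 lower.

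Of 10 late erythroid and reticulocyte genes tested, 2 rose and 4 fell, with a median of -0.17. *Bpgm*, which makes the red cell regulator of oxygen affinity and is also expressed outside blood, had 57.9, 45.7 and 31.3 CPM in the WT libraries and 21.6, 19.9 and 18.9 CPM in the *Gpr174-/Y* libraries (log2 fold change -1.16, adjusted p = 0.00431 with edgeR). *Tent5c*, a poly(A) polymerase of late red cells and of plasma cells, rose by 1.21 (adjusted p = 0.000477 with edgeR). *Prdx2*, an abundant red cell peroxidase, was lower by 0.25 (edgeR log2 fold change -0.25, adjusted p = 0.0140), a direction that turned with total-count scaling and with limma on FPKM, and *Bnip3l*, needed to clear mitochondria from reticulocytes, had 0.05 and did not pass. With total-count scaling 4 of the 10 rose and 1 fell. *Ahsp* and *Trim58* were not analysed here.

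Genes that handle free hemoglobin and heme were mostly higher in *Gpr174-/Y* muscles. Of 14 tested, 8 rose and 1 fell, with a median log2 fold change of 0.49. *Hp*, the haptoglobin that binds free hemoglobin, had 26.3, 29.0 and 31.5 CPM in the WT libraries and 59.3, 69.8 and 89.3 CPM in the *Gpr174-/Y* libraries (log2 fold change 1.33, SE 0.15, adjusted p = 0.00120 with edgeR). *Hmox1*, the inducible heme oxygenase, had 34.9, 43.4 and 60.1 CPM in the WT libraries and 107, 99.6 and 88.9 CPM in the *Gpr174-/Y* libraries (log2 fold change 1.09, adjusted p = 0.00358 with edgeR). In both genes *Gpr174-/Y* replicate 3 also lay above every WT library. *Ftl1*, the ferritin light chain, rose by 0.85 (adjusted p = 0.00443 with edgeR), whereas *Fth1*, the heavy chain, had -0.22 and did not pass, and its sign turned with total-count scaling and with limma on FPKM. With total-count scaling 11 rose and 0 fell. The part of free hemoglobin, or of any cell type, in these values was not tested.

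**Figure D4:**
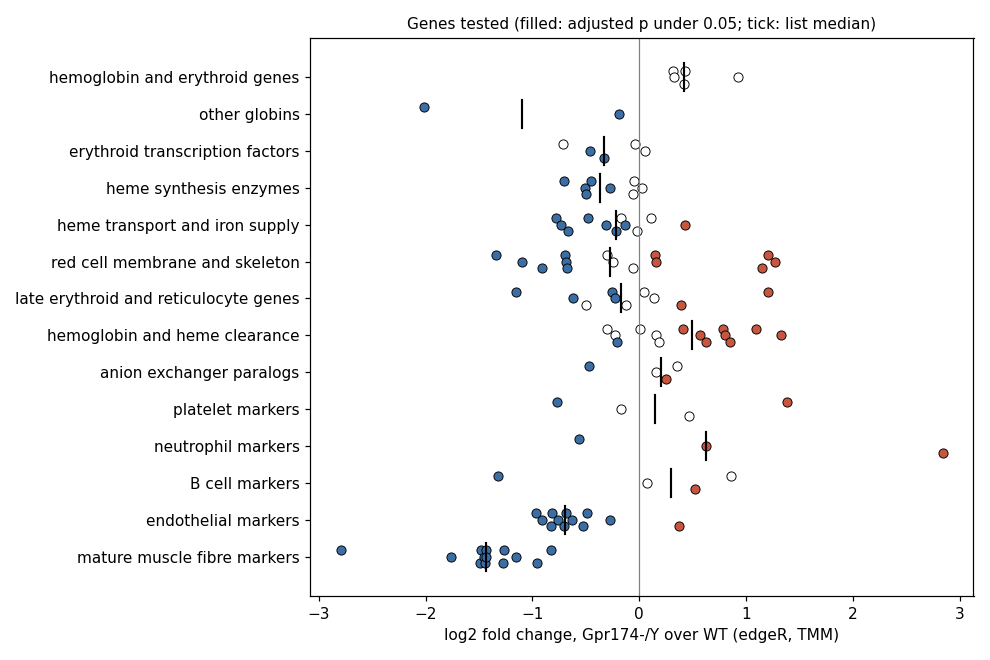
Log2 fold change (*Gpr174-/Y* over WT, edgeR with TMM) of each tested gene, by list, with red or blue filling for an adjusted p under 0.05 and a vertical tick at the list median. The 5 tested hemoglobin and erythroid genes are all open circles between 0.32 and 0.93, while the medians of the mature muscle fibre and endothelial markers are at -1.44 and -0.69.

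Markers of other blood cells did not share 1 pattern with the globins. Of 10 platelet markers 4 could be tested, 1 higher and 1 lower. *Pf4*, a platelet chemokine also made by tissue macrophages, had 9.96, 12.1 and 18.2 CPM in the WT libraries and 36.8, 35.5 and 33.2 CPM in the *Gpr174-/Y* libraries (log2 fold change 1.38, adjusted p = 0.00193 with edgeR), with no drop in replicate 3. *Gp1ba* fell (log2 fold change -0.77), and *Itga2b* and *Gp1bb* did not pass (-0.17 and 0.46, the former above 0 with total-count scaling). *Ppbp*, another platelet chemokine, was removed by the filter and had 5, 2 and 4 counts in the WT libraries and 26, 14 and 9 in the *Gpr174-/Y* libraries. It was named after its values were seen.

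The neutrophil markers *Ly6g*, *Ngp*, *Camp* and *Ltf* had at most 2 counts in any library, and *S100a8* and *S100a9* had 4 to 15. These were also named after their values were seen. Of 3 neutrophil markers tested 2 rose and 1 fell. *Mmp8*, a collagenase, had 3, 2 and 3 counts in the WT libraries and 21, 25 and 29 in the *Gpr174-/Y* libraries, at least 6.61-fold higher against 3 counts per WT library. *Csf3r* rose by 0.63 and *Cxcr2* had a log2 fold change of -0.57. Among 4 B cell markers tested, *Cd22* rose by 0.52 and *Fcer2a* fell by 1.32 on the log2 scale, and *Cd79a* and *Cd79b* did not pass. *Cd79a* had 12, 7 and 5 counts in the WT libraries and 24, 19 and 12 in the *Gpr174-/Y* libraries. With total-count scaling 2 platelet, 2 neutrophil and 2 B cell markers rose and 0, 0 and 1 fell, the calls of *Gp1ba* (-0.49) and *Cxcr2* (-0.29) being lost. The part of these cells in the globin values was not tested.

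Vessel and fibre markers fell in *Gpr174-/Y* muscles. Of 12 endothelial markers, 11 fell and 1 rose, with a median log2 fold change of -0.69, and their summed level was 1308 to 1509 CPM in the WT libraries and 858.3 to 964.3 CPM in the *Gpr174-/Y* libraries. *Cdh5*, the cadherin of endothelial junctions, fell by 0.82, *Tie1* by 0.76 and *Pecam1* by 0.63 (adjusted p = 0.00122, 0.00122 and 0.00137 with edgeR), and *Eng* fell by 0.27, a direction that turned with total-count scaling and with limma on FPKM. All 13 mature fibre markers fell, with a median of -1.44. With total-count scaling 10 endothelial and 12 fibre markers fell. *Ckm*, *Acta1*, *Atp2a1* and *Myh4* had log2 fold changes of -1.48, -1.15, -1.44 and -1.49. The summed level of either list was lower in each *Gpr174-/Y* library, replicate 3 included, than in any WT library, and their part in the globin values was not tested.

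The genes whose CPM pattern over the 6 libraries was closest to the mean of the 4 adult globins were *Creb3l3*, *Entpd4*, *Gm52436*, *Cenps* and *Pcdhb3*, among 13631 other genes of at least 1 CPM. Their root mean square differences from the globin profile were 0.22 to 0.26 on the log2 scale, against 0.10 to 0.28 for the globins themselves and 0.19 for *Alas2*. The nearest, *Creb3l3*, had 0.933, 1.25 and 0.955 CPM in the WT libraries and 2.48, 1.74 and 0.791 CPM in the *Gpr174-/Y* libraries. *Entpd4*, the most abundant of the 5, had 25.4, 17.4 and 22.9 CPM in the WT libraries and 33.4, 35.7 and 13.6 CPM in the *Gpr174-/Y* libraries, and its reads may be shared with the gene listed as *Entpd4b*. No gene of the red cell lists was among the 5, and likeness over 6 libraries is a description.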

How the data were processed

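Members and gene lists were chosen with earlier results of these data known. The authors deposited, per RefSeq transcript and library, expected counts (estimated reads, not normalized), FPKM and TPM. The submitters' processing notes name HISAT2 2.0.4, Bowtie2 2.2.5, RSEM 1.2.12 and GRCm39. The labels name an Illumina kit and the methods a BGISEQ platform. Strand use is not given in the sources used here.

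Expected counts were summed per Entrez gene and rounded. Groups came from the sample titles. edgeR 4.0.16 in R 4.3.3 was used with TMM, its low-count filter and the robust quasi-likelihood F-test, with Benjamini-Hochberg adjustment over all tested genes. Globin shares and ratios were compared by 2-sided exact permutation tests (scipy 1.17.1). Alternatives used DESeq2 1.42.0, limma 3.58.1 (voom, and log2 FPKM with pseudocounts of 1 and 0.1), other scalings and filters, and fewer libraries. The fit was tested on simulated data.

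The text names all members and Gpr174. From each of 13 lists it names up to 4 genes, first those of highest mean CPM past both thresholds and then the most abundant others. List genes beyond these, all near 0 or removed by the filter, were named after their values were seen. It also names the 5 genes nearest the globin profile. Sequences are from RefSeq (GRCm38.p6) and GENCODE M21, and no GRCm39 coordinate was converted. The authors' group means were not used.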

Additional observations from a re-analysis of the deposited data

How the results depend on the processing

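Precision was limited by 3 libraries per group and, for *Slc4a1*, by at most 5 counts. With total-count scaling the alpha sum was 0.65 and the beta sum 0.66, neither past the threshold. The number of members called, 0, became 1 with total-count scaling, 1 with DESeq2's Wald test, and 0 to 4 when 1 library was left out. Over all tested genes these fits called 9313, 6815 and 5457 to 9165, against 7863. With replicates 1 and 3 of each group alone, edgeR called 0 list genes, against 77, although 54 of 104 had an unadjusted p under 0.05. The sources used here describe no pairing of same-numbered libraries of the 2 genotypes, and the deviations of such libraries from the group means correlated by -0.03, -0.01 and -0.04. With the replicate block 0 members and 67 list genes were called, and the alpha sum had a log2 fold change of 0.29 and the beta sum 0.26, neither past the threshold. Leaving out 1 library moved the alpha sum from 0.045 to 0.69 and the beta sum from 0.0093 to 0.73, the latter past the threshold without *Gpr174-/Y* replicate 3, moved the list genes called from 55 to 85, and moved the globin share difference from 0.00520 to 0.0203 percentage points. It turned the sign of the log2 ratios of alpha to beta (-0.034 to 0.077), *Hba-a1* to *Hba-a2* (-0.19 to 0.038) and *Alas2* to globin (-0.025 to 0.23), of *Hbb-bs* (-0.048 to 0.67), of *Cpox* (-0.12 to 0.025) and of *Lmo2* (-0.14 to 0.10). With total-count scaling, which puts the median of all genes at 0.28 against 0.00, the sign turned for *Cpox* (0.23), *Cygb* (0.088), *Eng* (0.00011), *Fth1* (0.051), *Itga2b* (0.10), *Lmo2* (0.23) and *Prdx2* (0.023). With limma on log2 FPKM it turned for *Cpox* (0.20 with a pseudocount of 1, 0.22 with 0.1), *Cygb* (0.086 and 0.088), *Eng* (0.0019 and 0.0020), *Fth1* (0.051 with both), *Lmo2* (0.23 and 0.24) and *Prdx2* (0.020 with both). The causes were not tested.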
